A study of Mus musculus with 2 samples.

Results

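The genes described are 10 listed by symbol among the 19465 genes of the count files. Nfe2l2 encodes the transcription factor NRF2. Nqo1, Hmox1, Gclc, Gclm, Txnrd1 and Srxn1 are NRF2 target genes. Sod1, Sod2 and Cat encode the antioxidant enzymes of the cytosol, the mitochondrion and the peroxisome. They were listed by function, with earlier results of these data known. All 10 passed the minimum of 20 UMIs over both sections, as did 15236 genes in all. A UMI is a molecular tag that counts 1 captured probe molecule.

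Spatial gene expression was measured in formalin-fixed heart sections of 5 μm from 2 mice, with the Visium CytAssist assay, in which probe pairs bind RNA in the tissue and are captured on a grid of barcoded spots. The control mouse was α-MHC-MerCreMer+/−, and the transgenic mouse was α-MHC-MerCreMer+/− TOP2B LSL/−, with a human TOP2B cDNA behind a CAG promoter and a floxed STOP cassette at the Rosa26 locus. Both genotypes carried the tamoxifen-dependent Cre, which the α-MHC promoter restricts to cardiomyocytes, and both received a single intraperitoneal dose of 80 mg/kg of tamoxifen, which the methods place at 6 weeks of age. With this dose the transgenic line is the study's model of acute heart failure, and the day of collection is not given for these sections. There was 1 section of 1 mouse per genotype, so no test between genotypes was possible, and genotype, animal, section plane and capture area cannot be told apart.

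Reactive oxygen species are made by the respiratory chain, by oxidases and by free heme and iron, and the heart, which is dense in mitochondria, holds enzymes against them in each compartment. NRF2 is held in the cytosol by KEAP1, which hands it to a ubiquitin ligase for degradation. When reactive molecules modify KEAP1, NRF2 escapes, pairs with a small MAF protein and binds antioxidant response elements of genes for glutathione synthesis, thioredoxin reduction, quinone reduction and heme breakdown. NRF2 is therefore set largely at the level of protein, and the level of its mRNA does not give its activity. BACH1 competes for the same elements and holds back Hmox1 in particular.

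The control section had 1256 spots with 14376300 UMIs, at a median of 11336 UMIs per spot, and the transgenic section had 924 spots with 12953389 UMIs, at a median of 14531. Levels are given as UMIs per 1000000 UMIs of the section (CPM) with exact Poisson 95% intervals, and ratios as log2 of transgenic over control CPM with exact binomial intervals. All these intervals cover counting error only and hold nothing of the spread between mice. Each section was therefore also split into 4 quadrants of position, whose range shows the spread inside a section. The median log2 ratio of all genes with at least 20 UMIs was 0.20. The 16 genes of other organs, used as background, lay at 2.93 CPM or less and in 3.90% of spots or fewer in either section. Cardiomyocyte marker genes were abundant in both sections, at 6.73% of UMIs in the control and 4.07% in the transgenic, which bears out the cardiac label. The Y-linked genes Ddx3y, Eif2s3y, Kdm5d and Uty had 0 UMIs in both sections. A spot covers several cells, and fewer cells of a type and less RNA per cell cannot be told apart.

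Promoter sequences near the start site were searched for the core letters of the element that NRF2 and small MAF proteins are known to bind. Windows from 250 bases before to 50 after the annotated start were taken from RefSeq, build GRCm38.p6, and 8 of the 10 members had at least 1, with 10 windows in all. Hmox1 and Gclc had none and were not searched. Nqo1, Sod2 and Cat held no match to the element core TGACNNNGC or its variant TGAGNNNGC on either strand. Windows with a match to TGACNNNGC made up 12.4% of all 32851 windows of this length, those with TGAGNNNGC 17.6%, and those with either 27.8%, so a match is common. The matches of 5 members are shown with the core in capitals, on the gene's strand and with positions counted from the start site, so that a match on the other strand appears as its reverse complement.
Nfe2l2, chr2:75704885-75704913, minus strand, match beginning at -240: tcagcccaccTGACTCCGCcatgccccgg
Gclm, chr3:122245412-122245441, plus strand, match beginning at -134: cgctcccgggcGCACCGTCAactctcacga
Txnrd1 (second window), chr10:82859103-82859132, plus strand, match beginning at -92: actggatttttGCTTTGTCAttctgacacg
Srxn1, chr2:152105355-152105384, plus strand, match beginning at -158: ttctactgagaGCCGACTCAtcctctctgg
Srxn1, chr2:152105468-152105497, plus strand, match beginning at -45: caaattcacccTGAGTCAGCggccgggcgc
Srxn1, chr2:152105541-152105570, plus strand, match beginning at 28: ggcagtgggcaGCTAGGTCAgagtgagaca
Sod1, chr16:90220695-90220724, plus strand, match beginning at -56: tgccaaggtggGCGTGGTCAgactcaggcc

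Srxn1, the gene of sulfiredoxin, had 3 matches in 1 window and was the single member with the TGAG variant. Its match at -45 begins with TGAGTCA, a word that AP-1 proteins bind. The wider form TGANTCA, of which not every version is an AP-1 site, is held by 7.81% of all windows. The 250 bases before the start are given for Gclm and Srxn1, targets with a match, and for Sod2, the member with the lowest ratio and without one. Matches are in capitals.
Gclm: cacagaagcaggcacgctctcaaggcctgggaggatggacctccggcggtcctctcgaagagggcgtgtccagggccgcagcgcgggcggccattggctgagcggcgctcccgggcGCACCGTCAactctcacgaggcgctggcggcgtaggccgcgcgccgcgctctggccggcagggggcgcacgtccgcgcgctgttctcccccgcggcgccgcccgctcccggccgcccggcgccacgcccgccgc
Srxn1: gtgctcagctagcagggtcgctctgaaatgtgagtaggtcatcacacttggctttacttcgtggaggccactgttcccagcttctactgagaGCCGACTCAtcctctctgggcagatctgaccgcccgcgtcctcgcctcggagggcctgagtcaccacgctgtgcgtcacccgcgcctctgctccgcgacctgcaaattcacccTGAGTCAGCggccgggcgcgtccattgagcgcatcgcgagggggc
Sod2: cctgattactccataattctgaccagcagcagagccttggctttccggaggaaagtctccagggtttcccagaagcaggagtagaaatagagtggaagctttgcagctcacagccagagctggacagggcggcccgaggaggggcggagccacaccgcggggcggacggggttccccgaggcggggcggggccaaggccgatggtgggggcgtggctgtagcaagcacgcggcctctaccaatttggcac
These letters are a description of the windows. Elements farther away were not searched, and binding was not measured.

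Of the 10 members, 2 (Hmox1 and Gclm) had a transgenic level 1.5-fold or more above the control and 2 (Sod2 and Cat) 1.5-fold or more below it, while the other 6 lay between. Among all genes with at least 20 UMIs, 27.4% were at least 1.5-fold higher and 12.9% at least 1.5-fold lower, so 2 of 10 members in either direction is near the background. By position, 3 members (Hmox1, Gclm and Gclc) were higher in all 4 transgenic quadrants than in all 4 control quadrants, and 2 (Sod2 and Cat) lower in all, against 30.3% and 13.1% of all genes. The plots of levels and of ratios show the members in this order of roles.

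**Figure D1:**
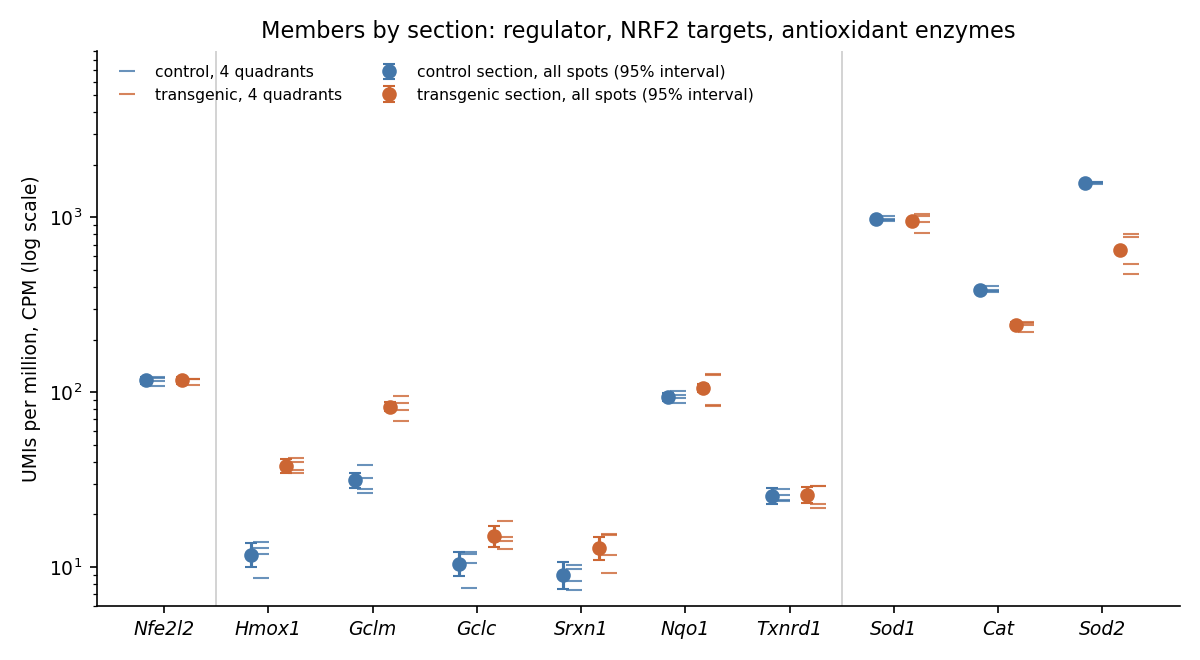
Level of each member in CPM (log scale) in the control section (blue) and the transgenic section (orange). Points give the whole section with Poisson 95% intervals and short bars the 4 quadrants. The quadrants of Hmox1, Gclm, Gclc, Cat and Sod2 do not overlap between the sections, and those of Nfe2l2, Srxn1, Nqo1, Txnrd1 and Sod1 do.

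Nfe2l2 had nearly equal levels in both sections. It had 1679 UMIs in the control, or 117 CPM (111 to 123), and 1513 UMIs in the transgenic section, also 117 CPM (111 to 123). Its quadrants ran from 109 to 122 CPM and from 110 to 120 CPM. The log2 ratio was 0.00 (-0.10 to 0.10), and this ratio was higher than that of 36.8% of genes.

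The partners and regulators of NRF2 had ratios on both sides of that of Nfe2l2. Of 13 with at least 20 UMIs, 4 were at least 1.5-fold higher and 0 lower, with a median log2 ratio of 0.25 against 0.20 for all genes, and 4 of 13 is near the 27.4% of all genes that were higher. Keap1, the sensor, went from 77.8 to 69.2 CPM, a log2 ratio of -0.17 (-0.30 to -0.04). Bach1, the repressor of Hmox1, went from 23.8 to 19.8 CPM, a log2 ratio of -0.26 (-0.50 to -0.02). Both intervals exclude 0 in the lower direction, by little, and the quadrants of both genes overlapped between the sections. Those of Keap1 ran from 72.6 to 83.6 CPM in the control and from 63.9 to 75.9 in the transgenic section. Those of Bach1 ran from 19.9 to 29.1 and from 17.2 to 21.1 CPM. The small MAF genes Mafk and Maff were higher, while Mafg had no row and was not measured. Mafk went from 91.7 to 374 CPM (log2 ratio 2.03, 1.94 to 2.12) and Maff from 20.3 to 82.7 CPM (2.03, 1.84 to 2.22), about 4.07-fold each. Small MAF proteins pair with NRF2 and with BACH1 alike. Sqstm1, whose product p62 binds KEAP1 and feeds it to autophagy, went from 583 to 1080 CPM, a log2 ratio of 0.89 (0.85 to 0.93). Nfe2l1, the NRF2 relative that drives proteasome genes, was at 363 and 432 CPM. Trim21, a ubiquitin ligase of p62, had the lowest ratio of the list at -0.34 (-0.64 to -0.05).

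The 6 NRF2 targets had log2 ratios from 0.03 to 1.69 with a median of 0.52, against 0.20 for all genes, and together went from 182 to 280 CPM. They did not move as a block. The ratios of Hmox1, Gclm, Gclc and Srxn1 exceeded the median over all genes, and those of Nqo1 and Txnrd1 did not.

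Hmox1 encodes heme oxygenase 1, which opens the heme ring and releases iron, carbon monoxide and biliverdin. It had 169 UMIs in the control section, 11.8 CPM (10.0 to 13.7), and 492 in the transgenic section, 38.0 CPM (34.7 to 41.5). The log2 ratio was 1.69 (1.44 to 1.95), 3.23-fold, higher than that of 95.04% of genes. The control quadrants had 8.63, 12.8, 11.8 and 13.9 CPM, and the transgenic quadrants 35.9, 42.1, 34.3 and 39.8 CPM. The lowest transgenic quadrant stood above the highest control quadrant by more than the range inside either section. Hmox1 was found in 11.9% of control spots (10.1 to 13.8) and 39.2% of transgenic spots (36.0 to 42.4). When every spot was brought to an equal depth of 8134 UMIs by random thinning, dropping the 140 shallower spots of the control and 78 of the transgenic section, the shares were 8.06% and 26.7%.

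Gclm encodes the modifier subunit of glutamate-cysteine ligase, the enzyme of the limiting step of glutathione synthesis, and Gclc its catalytic subunit. Gclm went from 450 UMIs, 31.3 CPM (28.5 to 34.3), to 1071 UMIs, 82.7 CPM (77.8 to 87.8). This was a log2 ratio of 1.40 (1.24 to 1.56), or 2.64-fold. Its control quadrants had 26.4, 38.2, 32.3 and 27.8 CPM and its transgenic quadrants 68.0, 95.5, 79.2 and 87.3 CPM, with no overlap. The share of spots with Gclm went from 29.5% to 65.2%, and from 22.0% to 46.6% after thinning.

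Gclc differed less. It had 150 UMIs, 10.4 CPM (8.83 to 12.2), in the control and 194 UMIs, 15.0 CPM (12.9 to 17.2), in the transgenic section. Its log2 ratio of 0.52 (0.21 to 0.84) stayed under 1.5-fold. Its quadrants ran from 7.60 to 12.1 and from 12.6 to 18.3 CPM, apart by less than the range inside a section. The intervals of the 2 ratios, 1.24 to 1.56 for Gclm and 0.21 to 0.84 for Gclc, did not overlap. Gclm made up 75.0% of Gclm and Gclc UMIs in the control (exact 71.3 to 78.4%) and 84.7% in the transgenic section (82.6 to 86.6%), a share that depends on probe efficiency but not on scaling between sections. The quadrants of that share overlapped slightly, from 69.6% to 83.4% and from 82.9% to 86.2%.

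Srxn1, whose product repairs overoxidized peroxiredoxins, went from 129 UMIs, 8.97 CPM (7.49 to 10.7), to 166 UMIs, 12.8 CPM (10.9 to 14.9). The log2 ratio was 0.51 (0.17 to 0.86), but the quadrants overlapped, from 7.405 to 10.2 and from 9.27 to 15.5 CPM. Nqo1, a quinone reductase and a standard readout of NRF2, was at 94.0 CPM (89.0 to 99.1) and 106 CPM (100 to 112) from 1351 and 1371 UMIs. Its log2 ratio of 0.17 (0.06 to 0.28) was close to the median of all genes, and its transgenic quadrants, from 83.1 to 126 CPM, spanned those of the control, from 87.1 to 101 CPM. Txnrd1, the cytosolic thioredoxin reductase, was at 25.4 CPM (22.9 to 28.1) and 25.9 CPM (23.2 to 28.8) from 365 and 335 UMIs. Its log2 ratio of 0.03 (-0.19 to 0.24) allows for no more than a small difference in either direction by counting error. Under other scalings between the sections every log2 ratio fell by 0.16 (TMM factors), 0.15 (DESeq2 size factors) or 0.09 (without the 50 most abundant genes), so those of Txnrd1 and Nfe2l2 then lay below 0, while that of Nqo1 stayed above 0, at 0.01 with TMM factors.

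**Figure D2:**
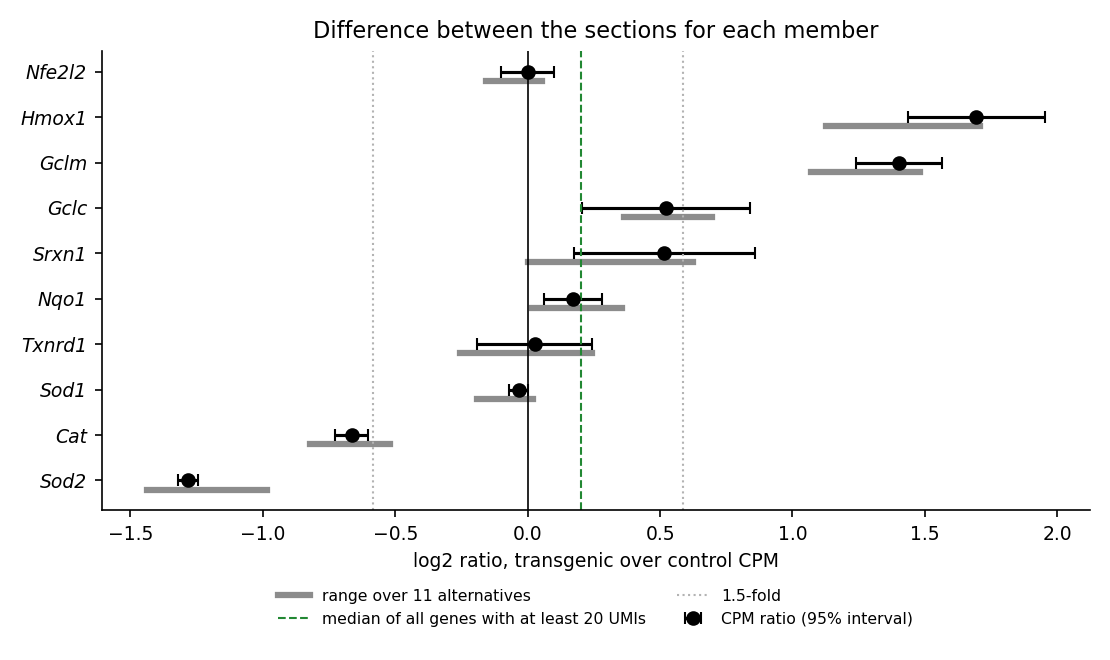
Log2 ratio of transgenic over control CPM for each member. Points give the ratio over whole sections with its 95% counting interval and gray bars the range over 11 alternatives of scaling and spots, with dotted lines at 1.5-fold and a dashed line at the median of all genes, 0.20. Hmox1, Gclm and Sod2 lie past 1.5-fold over the whole gray bar.

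The superoxide dismutases Sod1 and Sod2 parted by compartment. Sod3, the secreted one, is not a member and went from 55.2 to 146 CPM, a log2 ratio of 1.41 (1.29 to 1.53). Sod1, the cytosolic copper and zinc enzyme, had 14097 UMIs, 981 CPM (964 to 997), in the control and 12402 UMIs, 957 CPM (941 to 974), in the transgenic section. Its log2 ratio was -0.03 (-0.07 to 0.00), and its transgenic quadrants, from 817 to 1054 CPM, spanned the control quadrants, from 953 to 1018 CPM. Sod2, the manganese enzyme of the mitochondrial matrix, had 22686 UMIs, 1578 CPM (1558 to 1599), in the control and 8405 UMIs, 649 CPM (635 to 663), in the transgenic section. The log2 ratio was -1.28 (-1.32 to -1.25), 2.43-fold lower, and 2.91% of genes were lower still. Control quadrants of Sod2 had 1590, 1586, 1556 and 1578 CPM. Transgenic quadrants had 772, 474, 799 and 538 CPM, all below the control, and with a far wider range.

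Sod2 accounted for 61.7% of Sod1 and Sod2 UMIs in the control section (exact interval 61.2 to 62.2%) and for 40.4% in the transgenic section (39.7 to 41.1%). The quadrants gave 60.5% to 62.5% and 36.3% to 43.1%, without overlap. The thioredoxin system, which also has a mitochondrial and a cytosolic arm, showed the same direction. Txnrd2, the mitochondrial reductase, made up 75.2% of Txnrd1 and Txnrd2 UMIs in the control (73.0 to 77.4%) and 55.9% in the transgenic section (52.3 to 59.5%). Txn2, the mitochondrial thioredoxin, made up 56.5% of Txn1 and Txn2 UMIs (55.6 to 57.4%) and 30.8% (29.9 to 31.8%). In these pairs the mitochondrial gene was lower, with log2 ratios of -1.23 for Txnrd2 and -0.92 for Txn2, while cytosolic Txn1 was at 331 and 510 CPM, a log2 ratio of 0.62 (0.57 to 0.68). The glutaredoxins did not share this direction. Cytosolic Glrx went from 36.4 to 18.8 CPM, a log2 ratio of -0.95 (-1.18 to -0.73), while mitochondrial Glrx2 was at 67.2 and 67.4 CPM.

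Cat encodes catalase, which breaks down hydrogen peroxide in peroxisomes. It had 5521 UMIs, 384 CPM (374 to 394), in the control and 3138 UMIs, 242 CPM (234 to 251), in the transgenic section. Cat was thus 1.59-fold lower, with a log2 ratio of -0.66 (-0.73 to -0.60). Control quadrants had 382, 374, 378 and 404 CPM and transgenic quadrants 241, 251, 250 and 222 CPM, with no overlap. The value is close to 1.5-fold, and 3 of the 11 alternatives placed it inside that limit.

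Moran's I is a score of how alike neighboring spots are, near 0 where there is no pattern. As deposited, it was 0.08 for Sod2 and 0.01 for Sod1 in the control, and 0.48 and 0.46 in the transgenic section. For Cat it was -0.00 and 0.16, for Nqo1 -0.00 and 0.12, for Nfe2l2 0.00 and 0.08, and for Hmox1 0.03 and 0.07. For Gclm it was 0.0249 and 0.0172 and for Gclc 0.0038 and -0.0136, both lower in the transgenic section. Genes outside the members had higher scores in the transgenic section too, such as Tnnt2 with 0.09 and 0.61 and Fabp4 with 0.055 and 0.50, so a rise is not particular to Sod1 and Sod2. The score depends on the number of UMIs, so it was not compared between genes. The maps show the patch of high Sod2 on 1 side of the transgenic section and a block of spots surrounded by empty grid positions with little Sod2.

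**Figure D3:**
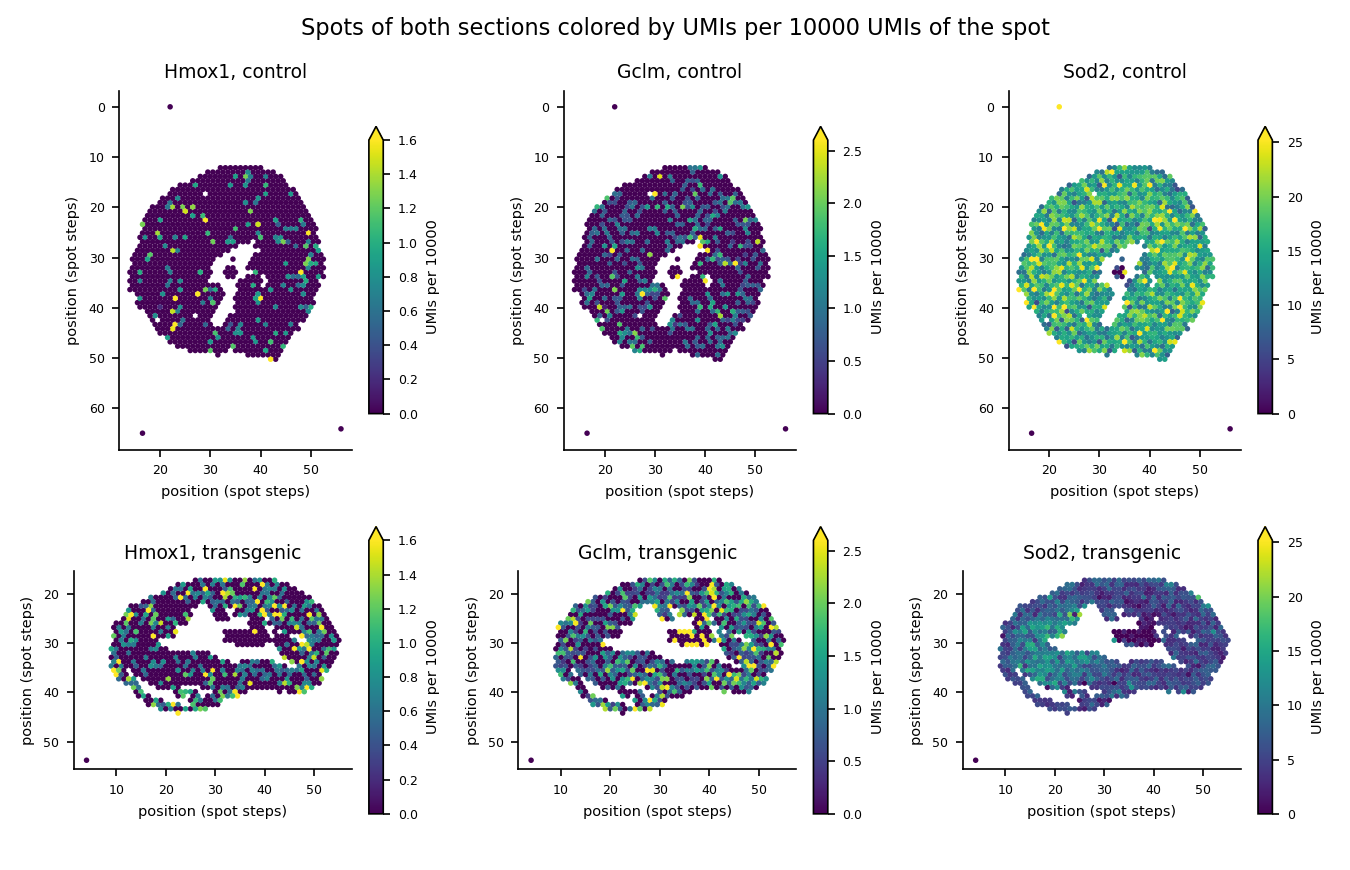
Spots of the control (top) and transgenic (bottom) section at their place on the grid, in spot steps, colored by UMIs of Hmox1, Gclm or Sod2 per 10000 UMIs of the spot. Each gene has 1 color scale for both sections. Hmox1 and Gclm are seen in more spots of the transgenic section (39.2% and 65.2%) than of the control (11.9% and 29.5%), and Sod2 is lower nearly throughout and uneven in the transgenic section.

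Marker genes of some cell types also differed between the sections. The counts past 1.5-fold given here stand beside 27.4% of all genes higher and 12.9% lower. All of 6 erythroid genes were at least 1.5-fold higher, and their sum went from 2146 CPM (quadrants 1696 to 2701) to 20437 CPM (7868 to 47897). Of 10 fibroblast genes 7 were higher, with a sum of 1706 CPM (1557 to 1855) and 4808 CPM (3623 to 5965). Their log2 ratios ran from Gsn at 0.00 to Col1a1 at 2.68. Col1a1 and Col1a2 supplied 2474 and 3970 of 24522 fibroblast marker UMIs in the control. In the transgenic section they supplied 14264 and 22615 of 62285. Of 10 macrophage genes 8 were higher, with a sum of 321 CPM (297 to 345) and 631 CPM (544 to 699). Of 9 cardiomyocyte genes 5 were lower and 0 higher, with a median log2 ratio of -0.60. They did not move alike: 7 had ratios below 0 and 2 above, from Tnni3 at -1.92 to Tnnt2 at 0.17. The sums of endothelial markers (1761 and 1697 CPM) and mural markers (955 and 1105 CPM) differed little, but their genes did not move alike. Endothelial ratios ran from Kdr at -0.92 to Pecam1 at 0.46, and mural ratios from Myh11 at -0.61 to Tagln at 0.63. Fabp4 alone supplied 13912 of the 25316 endothelial marker UMIs of the control. Of 5 mesothelial genes 3 were higher, with a sum of 13.4 and 31.1 CPM. None of these lists had a sum of 0 in either section. The part of these cell types in the members' differences was not tested, and values within spots ranked by the marker lists stand beside them here. The ranks are shares of marker UMIs. A high cardiomyocyte rank can mean more cardiomyocytes or more RNA of these markers per cell, which cannot be told apart.

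Hmox1 is known for its level in macrophages that clear red blood cells. Its level in the transgenic section was 34.8 CPM (25.3 to 46.7) in the 10% of spots richest in macrophage markers and 32.8 CPM (28.4 to 37.6) in the poorest 50%, which overlap. It was higher in fibroblast-richest spots, at 46.5 CPM (35.7 to 59.7) against 27.9 CPM (23.9 to 32.4) in the fibroblast-poorest spots. Col1a1 and Col1a2 weigh most in this rank in the transgenic section, so it need not follow the number of fibroblasts. Hmox1 was lower in the spots richest in cardiomyocyte markers, at 19.0 CPM (12.3 to 28.1) against 48.1 CPM (42.9 to 53.8) in the poorest. In the erythroid-richest spots it was at 24.7 CPM (14.9 to 38.6) and in the erythroid-poorest at 39.2 CPM (34.7 to 44.2), which overlap. In the control section all 4 rankings gave overlapping intervals for Hmox1. Between the sections, its log2 ratio was 1.94 (1.59 to 2.31) in the cardiomyocyte-poorest 50% of spots and 0.64 (-0.29 to 1.60, from 18 and 25 UMIs) in the richest 10%. In macrophage-poorest spots it was 1.66 (1.27 to 2.06), about as large as over the whole section. These spots were ranked within each section, and the macrophage marker sum was 1.97-fold higher in the transgenic section. The 2 classes therefore need not hold equal macrophage content. Per 1000 macrophage marker UMIs Hmox1 had 36.6 UMIs in the control and 60.2 in the transgenic section.

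Gclm was higher in the transgenic section in all the classes of spots compared. Its log2 ratios ran from 1.07 in the cardiomyocyte-richest 50% to 2.34 in the erythroid-richest 10%. The ratio was 2.02 (1.40 to 2.70) in the cardiomyocyte-richest 10% and 1.70 (1.48 to 1.94) in the poorest 50%. The erythroid marker sum was 9.52-fold higher in the transgenic section, so the erythroid-richest spots of the 2 sections need not hold equal erythroid content. In the transgenic section Gclm was at 134 CPM (109 to 163) in the erythroid-richest spots and at 81.7 CPM (75.1 to 88.7) in the erythroid-poorest. In the poorest the log2 ratio was 1.42 (1.19 to 1.64), as over the whole section. Srxn1 was at 6.85 CPM (3.13 to 13.0, from 9 UMIs) in the cardiomyocyte-richest spots and at 16.3 CPM (13.3 to 19.7) in the poorest. Nqo1 ran the other way, with 140 CPM (121 to 162) in the cardiomyocyte-richest and 90.5 CPM (83.3 to 98.2) in the cardiomyocyte-poorest spots of the transgenic section. Against the control its log2 ratio was 0.69 (0.35 to 1.02) in the cardiomyocyte-richest and -0.05 (-0.21 to 0.12) in the poorest spots. Targets of the same factor were thus high in different spots.

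Sod2 followed the cardiomyocyte markers in the transgenic section, with 966 CPM (914 to 1021) in the richest and 488 CPM (471 to 505) in the poorest spots. Sod1 did so by less, with 1040 CPM (985 to 1096) and 903 CPM (880 to 927). The log2 ratio of Sod1 between sections was -0.58 (-0.74 to -0.42) in the erythroid-richest spots. In the control section Sod2 was at 1562 and 1557 CPM in the cardiomyocyte-richest and cardiomyocyte-poorest spots. The log2 ratio between sections was -0.69 (-0.79 to -0.59) in the cardiomyocyte-richest 10% and -1.67 (-1.73 to -1.62) in the poorest 50%. Sod2 was therefore below the control also in the spots that ranked highest for these markers in each section. Spots were ranked within a section, so the same rank need not mean equal cardiomyocyte content. Per 1000 cardiomyocyte marker UMIs there were 23.5 Sod2 UMIs in the control and 15.9 in the transgenic section, while Cat had 5.71 and 5.95 and Sod1 14.6 and 23.5. These values depend on the markers summed, of which 7 were lower in the transgenic section and 2 higher. Myh6 alone supplied 265534 of the 966971 marker UMIs of the control, and its level fell from 18470 to 5734 CPM. Mybpc3 rose from 3239 to 3554 CPM. The values are therefore not levels per cardiomyocyte.

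Cat, like Gclm, was higher in the erythroid-rich spots of the transgenic section. Catalase is abundant in red blood cells and their precursors. In the transgenic section Cat was at 426 CPM (381 to 474) in the erythroid-richest 10% of spots and 228 CPM (217 to 240) in the poorest 50%, while the control had 402 and 385 CPM. The log2 ratio was 0.08 (-0.13 to 0.29) in the erythroid-richest and -0.75 (-0.84 to -0.67) in the erythroid-poorest spots. Spots were ranked within a section, and the erythroid marker sum was 9.52-fold higher in the transgenic section. The 2 richest classes therefore need not hold equal erythroid content. In the transgenic section the erythroid-richest spots had a median of 8176 UMIs, and 52.2% lay at the tissue edge (fewer than 6 neighbors). The poorest had 15088 UMIs and 26.7%.

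**Figure D4:**
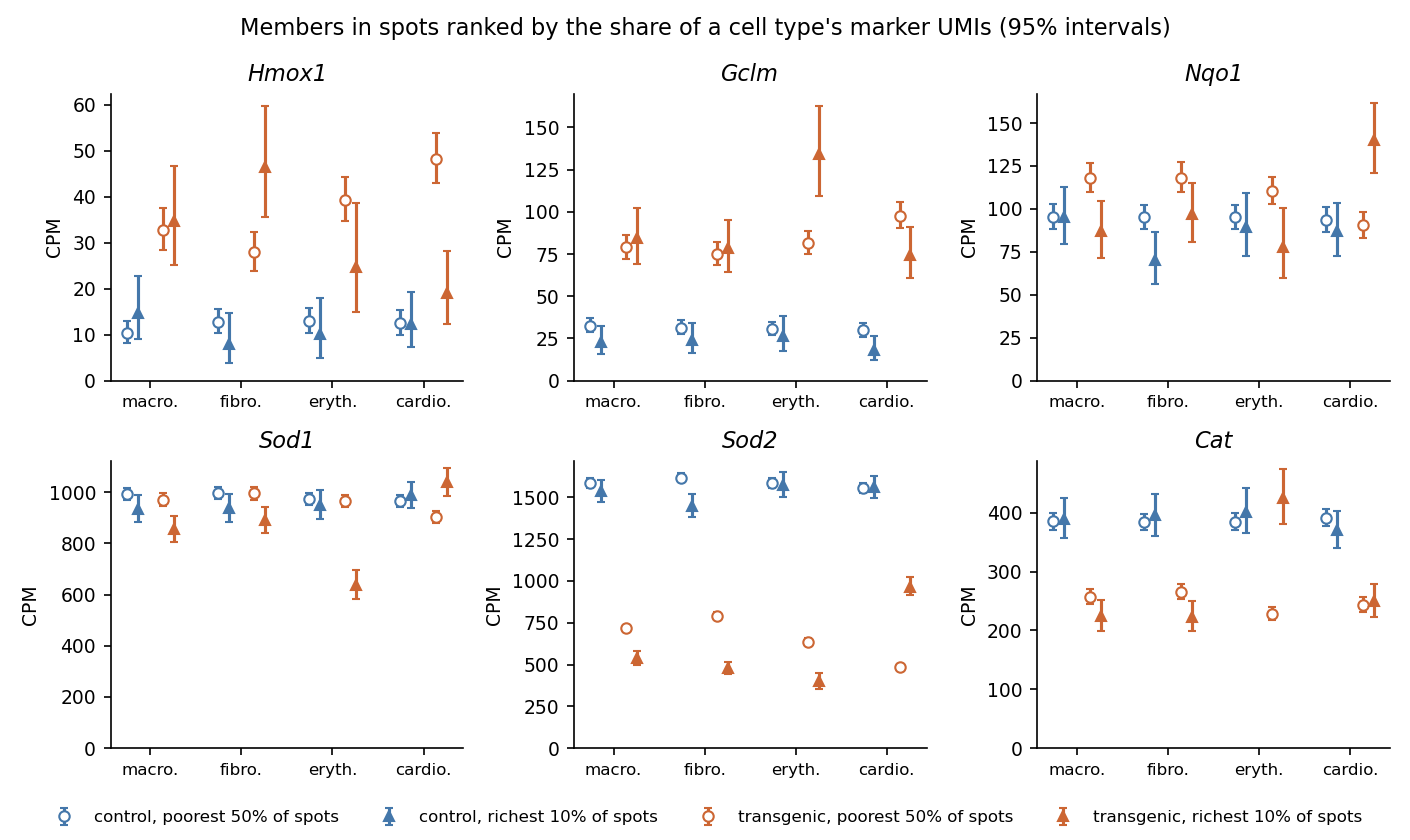
CPM of Hmox1, Gclm, Nqo1, Sod1, Sod2 and Cat in the 50% of spots with the lowest share (open circles) and the 10% with the highest share (triangles) of macrophage, fibroblast, erythroid or cardiomyocyte marker UMIs, for the control (blue) and transgenic (orange) section, with Poisson 95% intervals. In the transgenic section Hmox1 is low and Sod2, Nqo1 and, by less, Sod1 are high in spots rich in cardiomyocyte marker UMIs. Cat and Gclm are high there in spots rich in erythroid marker UMIs. The ranks need not follow the number of cells of a type.

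Genes whose UMIs per spot varied most like those of the members were sought among genes with at least 1000 UMIs in the section, by the correlation r of log values over spots, and named from r of 0.3. In the transgenic section, over 923 spots, Sod2 was most like Fabp3 (r = 0.71), Atp5a1 (0.69) and Lpl (0.67), genes of fatty acid transport, ATP synthesis and lipid uptake. Sod1 was most like Atp2a2 (0.70), Tnnt2 (0.68) and Aldoa (0.68), the calcium pump, troponin T and a glycolytic enzyme. Cat was most like Tent5c (0.40), Alas2 (0.38) and Ube2l6 (0.37), of which Alas2 makes heme in red blood cell precursors. In the control section, over 1256 spots, Sod2 was most like Ckmt2 (0.47), Ndufv3 (0.43) and Chchd10 (0.42), all mitochondrial, and Sod1 like Pln (0.40), Myl2 (0.31) and Lpl (0.30). Nqo1 reached 0.32 with Atp5a1, Ckm and Mb in the transgenic section, and no gene passed for Nfe2l2 or Gclm, while Hmox1, Gclc, Txnrd1 and Srxn1 had fewer than 1000 UMIs in both sections. Spots share depth, which by itself correlated with Sod2 at r = 0.35 in the control and 0.28 in the transgenic section, and with Sod1 at 0.37 and 0.46. In the control the values of Sod1 with Myl2 and Lpl were below its value with depth. Neighboring spots are not independent.

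The other genes of these pathways were taken from lists by compartment and role. Of 92 that are not members and had at least 20 UMIs, 33 were at least 1.5-fold higher and 15 lower, beside 27.4% and 12.9% of all genes. Some genes are in more than 1 list, and the counts by list include members.

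Among 21 other NRF2 targets 9 were higher and 1 lower, beside 27.4% and 12.9% of all genes, with a median log2 ratio of 0.50. Mgst1, a membrane-bound glutathione transferase, was highest, with 20.7 and 212 CPM (log2 ratio 3.35, 3.18 to 3.53), and Gsta4, which conjugates lipid aldehydes, followed with 132 and 738 CPM (2.48, 2.41 to 2.55). Gsr, glutathione reductase, went from 40.9 to 61.5 CPM (0.59, 0.43 to 0.75). Me1, malic enzyme 1, was lowest, with 50.7 and 33.04 CPM (-0.62, -0.79 to -0.44). In the list of glutathione synthesis and turnover 5 of 10 were higher and 1 lower, with a median of 0.56. Gclm was highest, and Chac1, which degrades glutathione, was lowest with 17.7 and 6.95 CPM (-1.35, -1.71 to -0.99).

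The compartments differed in their medians. The lists were chosen with earlier results of these data known, so this contrast is a description only. Among all genes with at least 20 UMIs, 27.4% were higher and 12.9% lower by the same limit. Of 10 mitochondrial antioxidant genes, Sod2 among them, 0 were higher and 7 lower, with a median log2 ratio of -0.94. Gstk1, a mitochondrial and peroxisomal glutathione transferase, was lowest at 129 and 32.96 CPM (-1.96, -2.12 to -1.81). Nnt, the transhydrogenase that supplies NADPH to the matrix, was at 261 and 121 CPM (-1.11, -1.19 to -1.02), and a second row under the same symbol had a log2 ratio of -1.30. Prdx3, the matrix peroxiredoxin, was at 172 and 104 CPM (-0.72, -0.82 to -0.63), and Glrx2 was highest, at 67.2 and 67.4 CPM. Of 11 peroxisome genes, Cat among them, 0 were higher and 5 lower, with a median of -0.50, from Pxmp2 at -1.12 to Pex5 at 0.31. Of 13 cytosolic antioxidant genes 4 were higher and 1 lower, with a median of 0.17, from Glrx at -0.95 to Selenow at 0.85. Ccs, the copper chaperone of Sod1, was at 28.4 and 40.0 CPM (0.49, 0.30 to 0.69). The median of the cardiomyocyte markers, -0.60, was below 0 like those of the mitochondrial and peroxisomal lists, with 7 of 9 markers below 0 and 2 above. The part of cardiomyocyte markers in the medians of these lists was not tested.

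**Figure D5:**
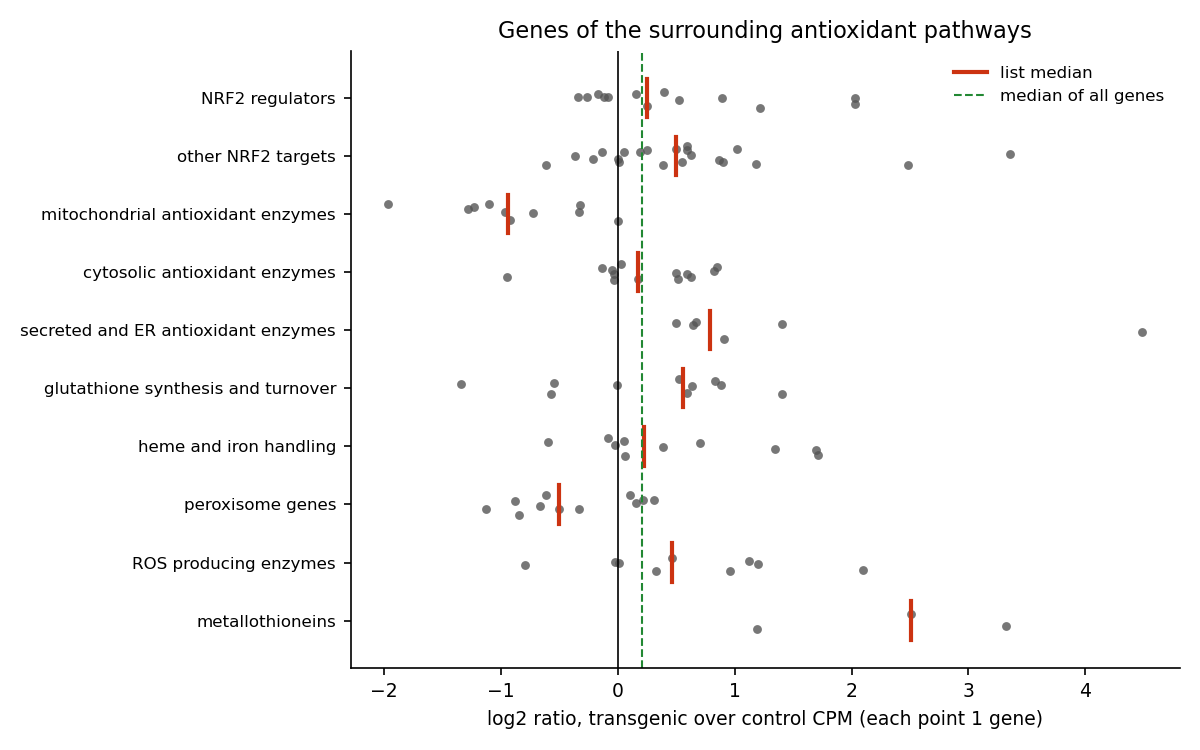
Log2 ratio of transgenic over control CPM for each gene with at least 20 UMIs (points) of 10 lists, with the list median (red) and the median of all genes (dashed, 0.20). The medians of the mitochondrial list (-0.94) and the peroxisome list (-0.50) lie below 0 and those of the other lists at 0.17 or above.

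In heme and iron handling, the pathway of Hmox1, 4 of 10 genes were higher and 1 lower, beside 27.4% and 12.9% of all genes. The median was 0.22, against 0.20 for all genes, so the list is near the background. The 4 include Hmox1 itself and Hp, which had only 7 and 16 UMIs. Cp, ceruloplasmin, which oxidizes iron for export, was highest at 13.4 and 43.9 CPM (log2 ratio 1.71, 1.47 to 1.95). Tfrc, the transferrin receptor, was lowest at 171 and 113 CPM (-0.60, -0.69 to -0.51). The mouse Top2b gene was at 106 and 102 CPM, a log2 ratio of -0.07 (-0.17 to 0.04). The probes are for mouse genes, and whether they bind the human transgene is not known here, so this value is no check of the label.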

How the data were processed

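Values are UMI counts of each gene in each tissue-covered spot, deposited by the authors without normalization as Space Ranger 2.0.0 wrote them. The authors also deposited Moran's I for each section, a score per gene. Whole numbers were checked, and sums equaled the deposited totals for all 19219 and 19227 genes listed. The builds named in the submitters' processing notes are GRCm39 and mm39. The 725 barcodes in both sections are grid positions. UMIs were summed per section and divided by the totals (Python 3.11.15, scipy 1.17.1). Isolated spots (4 and 2) held 1328 and 1 UMIs and were kept. Spots are not replicates, so the Wilcoxon test of the methods was left out. Ratio code was tested on simulated data. As alternatives, scaling used TMM factors of edgeR 4.0.16, size factors of DESeq2 1.42.0 or totals without the 50 most abundant genes, and others used subsets of spots, equal weight for spots, 1 CPM added and a 2-fold limit. Named are the members, chosen partners, the highest and lowest of each list and a few other genes picked after their values were seen. These include Maff, Sqstm1, Gsta4, Nnt, Fabp4, Col1a2, Myh6, Mybpc3, Mt3, Sod3 and Hp. The members and lists were chosen with earlier results of these data known, and TGAGNNNGC and TGANTCA were added after seeing sequences. Genes not analysed here, as no row carries the symbol, include Mafg, Taldo1, Prdx1, Ftl1, Gpx4, Ero1a, Actc1, Hba-a1, Ahsp and Ly6c1.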

Additional observations from a re-analysis of the deposited data

How the results depend on the processing

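Hmox1 (log2 ratio 1.13 to 1.71), Gclm (1.07 to 1.48) and Sod2 (-1.44 to -0.99) stayed past 1.5-fold under all 11 alternatives. Cat (-0.82 to -0.52) did so under 8 and lost it with spots weighted equally and in the macrophage-poorest and fibroblast-poorest spots, so that the count of lower members was 1 there, as it was with a 2-fold limit. Gclc (0.36 to 0.70) passed 1.5-fold under 2 and Srxn1 (0.00 to 0.62) under 1, and Nfe2l2, Nqo1, Txnrd1 and Sod1 under 0. Among the 11 alternatives, the log2 ratio of Hmox1 was lowest, at 1.13, in the 50% of spots poorest in fibroblast markers. That of Gclm was lowest, at 1.07, in the 50% of spots richest in cardiomyocyte markers. In the richest 10% it was 2.02 (1.40 to 2.70, from 27 and 98 UMIs), so it did not fall steadily with this rank. The transgenic Sod2 share was 44.4% in the cardiomyocyte-richest 50% of spots, 42.5% in the macrophage-poorest and 44.3% in the fibroblast-poorest. The cause of these shifts was not tested. Intervals cover counting error only, and with 1 section per genotype no setting shows the spread between mice. Gclc and Srxn1, with fewer than 200 UMIs in each section, are limited by depth. No paired analysis was possible because the 1 section of each genotype leaves no pairs.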

Other observations

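Some genes around these pathways had larger ratios than any member. The 3 metallothioneins, which bind zinc and copper and scavenge radicals, were all at least 1.5-fold higher. Among all genes with at least 20 UMIs, 27.4% were at least 1.5-fold higher and 12.9% at least 1.5-fold lower. Mt1 went from 718 to 1642 CPM (log2 ratio 1.19, 1.16 to 1.23), Mt2 from 39.1 to 391 CPM (3.32, 3.20 to 3.45) and Mt3 from 9.53 to 54.3 CPM (2.51, 2.25 to 2.79). Of 6 secreted and endoplasmic reticulum antioxidant genes 5 were higher and 0 lower, from Gpx8 at 0.50 (0.25 to 0.75) to Gpx3, the secreted glutathione peroxidase, which went from 2726 UMIs, 190 CPM, to 55030 UMIs, 4248 CPM (4.49, 4.43 to 4.54).

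Of 9 genes for enzymes that make reactive oxygen species 4 were higher and 1 lower, beside 27.4% and 12.9% of all genes. Their median log2 ratio was 0.46, against 0.20 for all genes. Nox4, the oxidase that makes hydrogen peroxide, had 15 and 58 UMIs, or 1.04 and 4.48 CPM (2.10, 1.26 to 3.03). Its control level lies within that of the genes of other organs, which reached 2.09 CPM in the control. Cybb, the oxidase subunit of phagocytes, went from 10.9 to 23.7 CPM (1.12, 0.84 to 1.40), beside a macrophage marker sum of 321 and 631 CPM. Maob, monoamine oxidase B of the mitochondrial outer membrane, was lowest at 29.7 and 17.1 CPM (-0.79, -1.03 to -0.56). The part of cell types in these values was not tested.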
